A study of Mus musculus with 6 samples.

Results

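The genes described here are the p53 transcription factor family (Trp53, Trp63 and Trp73), the Mdm regulators of p53 (Mdm2 and Mdm4) and 5 core p53 target genes (Cdkn1a, Ccng1, Aen, Sesn1 and Zmat3). They were chosen by symbol and make up 10 of the 24421 genes listed in each deposited count table. RNA-Seq had been performed on the gastrocnemius/plantaris (GP) muscle of 6 mice of the B6C3F1 strain, which the study's methods give as male, at 5 months of age and 3 months after tamoxifen. The 3 libraries labelled Ctrl came from mice with the Net39 gene flanked by loxP sites (Net39 fl/fl) and no Cre. The 3 libraries labelled cKO came from HSACreERT2;Net39 fl/fl mice, in which the human skeletal actin promoter drives a tamoxifen-inducible Cre in skeletal muscle fibers but not in satellite cells or heart. Both groups carried the floxed allele and both received tamoxifen, and no group without tamoxifen or with Cre alone is among the samples. Net39 is a protein of the muscle nuclear envelope. The comparison asks how the p53 pathway differed between muscle with and without it.

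The labels were checked first against Net39, listed under its older symbol Ppapdc3. Its counts were 310, 321 and 217 in the Ctrl-labelled libraries and 5365, 4340 and 6080 in the cKO-labelled libraries. The targeted gene was therefore low in the labelled controls and high in the labelled knockouts, a log2 difference of 4.22 (SE 0.17, adjusted p = 0.000161 in edgeR's quasi-likelihood test with Benjamini-Hochberg adjustment). This is the opposite of what the labels say. The groups were kept as labelled, and every direction below is that of the labelled groups. If the labels were exchanged between the groups, which these files alone do not settle, every direction would turn. Total counts were 33860001 to 38201728 in the Ctrl-labelled libraries and 39191239 to 48839910 in the cKO-labelled libraries. The 6 marker genes of myofibers summed to between 71008 and 176131 CPM (counts scaled to a common library size) in each library, and all 6 had counts in every library.

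p53, the product of Trp53, is a transcription factor that is kept scarce in unstressed cells. Mdm2 is a ubiquitin ligase that marks p53 for degradation, and Mdm4 is a related protein that binds p53 and limits its activity. Damage to DNA and other stresses release p53 from both, largely without a change in its mRNA, and p53 then activates genes that halt the cell cycle, repair DNA, adjust metabolism or start apoptosis. Mdm2 is itself such a target, which closes a feedback loop. p63 and p73, the products of Trp63 and Trp73, bind very similar DNA sites. p63 is best known from stratified epithelium and from oocytes, and its gene has alternative starts that give a form with the transactivation domain and a form without it.

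A p53 site in DNA is a pair of adjacent half-sites of 10 bases, each with a fixed C and G at its center and weaker preferences around them. Windows of 300 bases around the RefSeq gene starts (GRCm38.p6, 250 bases before to 50 after) were searched for this consensus without a spacer. It is its own reverse complement, so 1 search covers both strands. The table held 13 windows for 8 of the 10 genes and none for Trp63 or Zmat3. The best matches among the core targets are shown because Cdkn1a and Sesn1, and Ccng1 and Aen, differed in opposite directions in the muscle, and capitals mark the 20 bases of the match, written 5′ to 3′ on the strand of the gene:
Cdkn1a, chr17:29090908-29090967, plus strand: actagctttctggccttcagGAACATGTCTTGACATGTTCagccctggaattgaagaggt
Ccng1, chr11:40755442-40755501, minus strand: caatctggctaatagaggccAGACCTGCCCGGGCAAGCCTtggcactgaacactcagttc
Sesn1, chr10:41887246-41887305, plus strand: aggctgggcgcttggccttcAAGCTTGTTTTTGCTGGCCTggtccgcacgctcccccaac
Aen, chr7:78895932-78895961, plus strand: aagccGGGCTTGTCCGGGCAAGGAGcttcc

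The Cdkn1a match had 19 of 20 consensus positions and lay 51 to 32 bases before the earlier of its starts. In the window at its later start the best match had 13. The Ccng1 match also had 19 and lay 195 to 176 bases before the gene start. At least 19 positions were matched in 22 of the 32851 windows of the whole table (0.067%). The Sesn1 match, 173 to 154 bases before the later of its starts, had 17 positions, as did those of Aen and of Trp53, and Trp73 had 18. Matches of at least 17 positions stood in 7 of the 13 windows, from 6 genes, against 1.38% of all windows. The windows of Aen overlap and hold the same match, which is counted in each. The best match of Mdm2 in this window had 11 positions and that of Mdm4 had 13. These are matches of letters in short windows. Whether p53 or p63 is bound there in this muscle was not measured.

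Of the 10 genes, 9 passed the filter on low counts and were tested among 14180 genes. At an adjusted p under 0.05, 4 were higher in the Ctrl-labelled libraries (Trp63, Cdkn1a, Sesn1 and Zmat3) and 2 were higher in the cKO-labelled libraries (Ccng1 and Aen). Among all genes tested, 11.8% were higher in the Ctrl-labelled libraries and 12.6% in the cKO-labelled libraries at the same threshold. Trp63 and Cdkn1a also differed by more than 2-fold, as did 6.05% of all genes in either direction. The ranges of the 2 groups did not overlap for 6 of the 9 genes, against 43.9% of all genes. The median log2 difference of the 9 genes was -0.05 and that of all genes tested was -0.02. The plot of members by library shows these values.

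**Figure D1:**
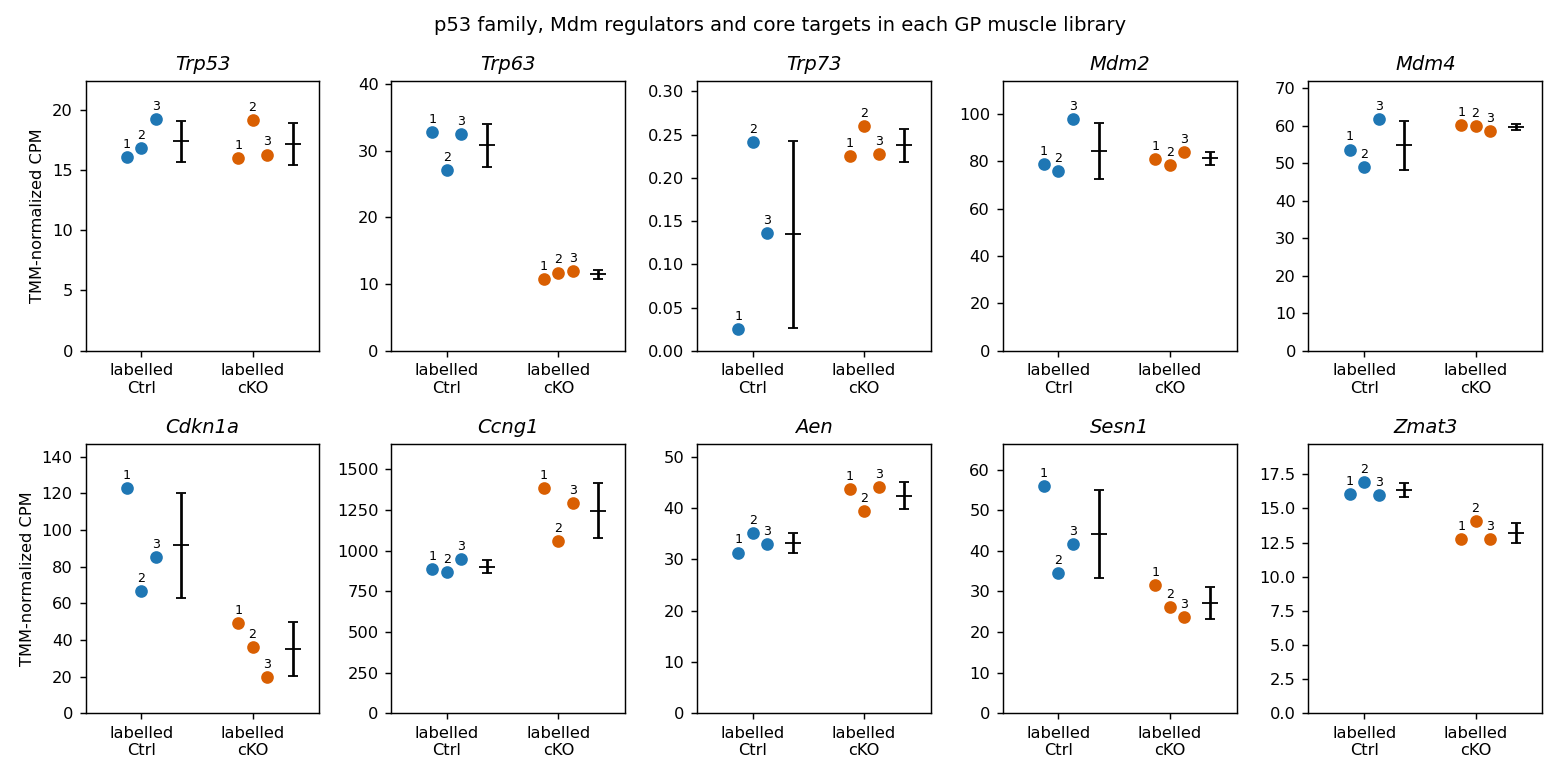
CPM of each of the 10 genes in each of the 6 libraries, with a separate axis for each gene. Numbered points are single libraries by replicate and bars are the group mean ± SD (n = 3), and the groups are apart for Trp63 (27.1 to 32.8 against 10.7 to 12 CPM), Cdkn1a, Ccng1, Aen, Sesn1 and Zmat3 and overlap for Trp53, Trp73, Mdm2 and Mdm4.

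Trp53, the founding member of the family, was present at like levels in both groups. Its counts were 629, 695 and 704 in the Ctrl-labelled libraries and 567, 737 and 716 in the cKO-labelled libraries, or 16.1, 16.8 and 19.3 against 16, 19.1 and 16.3 CPM. The ranges overlapped almost wholly. The mean was 17.4 ± 1.68 CPM against 17.1 ± 1.74 CPM (SD, n = 3), and the log2 difference, labelled cKO minus labelled Ctrl, was -0.02 with a 95% interval of -0.28 to 0.24 (adjusted p = 0.92 in edgeR's test). The protein was not measured. Trp53 lies on chromosome 11 of GRCm38 (69580359 to 69591873, plus strand) and shares no exon bases with another annotated gene.

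Trp63 was the member that differed with the smallest adjusted p. Its counts were 1285, 1125 and 1190 in the Ctrl-labelled libraries and 379, 452 and 528 in the cKO-labelled libraries, which are 32.8, 27.1 and 32.5 CPM against 10.7, 11.7 and 12 CPM. Every library labelled Ctrl lay above every library labelled cKO, and the libraries within each group lay close together. The mean fell from 30.8 ± 3.20 CPM in the Ctrl-labelled libraries to 11.5 ± 0.689 CPM in the cKO-labelled libraries (SD, n = 3), a 2.68-fold difference with a log2 value of -1.42 (95% interval -1.67 to -1.18, adjusted p = 0.000731 in edgeR's test). An exact two-sided permutation test of the CPM gave p = 0.1, the smallest that 3 against 3 libraries allow. The call was kept with each of the 6 libraries left out in turn. In bulk tissue, fewer cells of a type that holds a transcript and less of it per cell cannot be told apart.

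Trp63 spans 25683763 to 25892102 on the plus strand of chromosome 16. The starts of its annotated coding transcripts are up to 118153 bases apart. Counts per gene do not separate the form with the transactivation domain from the form without it. Epidermal keratin genes were examined because skin is a rich source of p63. Of 8 epidermal markers, Krt5, Krt14, Krt15 and Dsg3 had 0 counts in every library, and the list summed to 3.63 to 4.42 CPM in the Ctrl-labelled libraries and 3.14 to 5.22 CPM in the cKO-labelled libraries. Satellite cell markers summed to 19.3 to 20.4 CPM in the Ctrl-labelled libraries and 24.4 to 30.5 CPM in the cKO-labelled libraries. Cdh15 made up most of this sum (log2 difference 0.52, adjusted p = 0.0107 in edgeR's test). It was the 1 of 4 markers called higher in the cKO-labelled libraries, against 12.6% of all genes. Pax7, Myf5 and Calcr overlapped between the groups.

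The study had named Trp63 together with the atrophy-linked ubiquitin ligase genes Trim63 (MuRF1) and Fbxo32 (atrogin-1) as markers of a population of myonuclei. That population was described from single-nucleus RNA-Seq, whereas the values here compare the labelled groups in whole muscle. In these libraries the fitted values of both ligases lay on the other side of 0 from that of Trp63. Trim63 averaged 252 ± 67.9 CPM in the Ctrl-labelled libraries and 523 ± 185 CPM in the cKO-labelled libraries (log2 difference 1.05, SE 0.29, adjusted p = 0.0399 in edgeR's test, called in 2 of the 6 fits with 1 library left out). Fbxo32 averaged 500.0 ± 97.9 against 704 ± 73.4 CPM and did not pass the test (log2 difference 0.49, SE 0.16, adjusted p = 0.0645).

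Trp73 was close to the limit of detection. It had 1, 10 and 5 counts in the Ctrl-labelled libraries and 8, 10 and 10 in the cKO-labelled libraries, in all 16 against 28 counts. The ranges overlapped, the gene did not pass the filter on low counts, and the exact two-sided permutation test of its CPM gave p = 0.3. A difference was not detectable at this depth. On chromosome 4 (154056253 to 154140208, minus strand), 280 of its exon bases overlap Trp73os on the other strand, and the sources used here do not state whether counting used strand.

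The Mdm genes, the negative regulators of p53, did not pass the test. Mdm2 (chromosome 10, 117688875 to 117710758, minus strand) had 79.1, 76.0 and 97.8 CPM in the Ctrl-labelled libraries and 81.2, 78.6 and 83.9 CPM in the cKO-labelled libraries. All 3 cKO-labelled libraries lay inside the range of the Ctrl-labelled libraries, in which replicate 3 was highest. The log2 difference was -0.05 with a 95% interval of -0.30 to 0.20 (adjusted p = 0.749 in edgeR's test). Mdm4 (chromosome 1, 132959484 to 133030561, minus strand) had 53.7, 48.9 and 61.9 CPM against 60.2, 59.9 and 58.6 CPM. Here too the cKO-labelled libraries lay inside the wider range of the Ctrl-labelled libraries. The log2 difference was 0.12 with a 95% interval of -0.10 to 0.34 (adjusted p = 0.387). With total counts in place of trimmed mean of M-values (TMM) scaling, the Mdm4 value turned to -0.13.

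The ratio of counts of a pair of genes within a library does not depend on how libraries are scaled. Mdm2 had 1.47, 1.55 and 1.58 counts for each count of Mdm4 in the Ctrl-labelled libraries and 1.35, 1.31 and 1.43 in the cKO-labelled libraries. The ranges were close but did not overlap. The means were 1.54 ± 0.056 and 1.36 ± 0.061 (SD, n = 3), and the mean log2 ratio differed by -0.17, with p = 0.1 in the exact two-sided permutation test, its smallest value. This test cannot pass 0.05 with 3 against 3 libraries, and the nearest libraries of the 2 groups, at 1.47 and 1.43, were closer than the libraries within either group were spread.

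Within the family, Trp63 had 2.04, 1.62 and 1.69 counts for each count of Trp53 in the Ctrl-labelled libraries and 0.668, 0.613 and 0.737 in the cKO-labelled libraries. Trp63 therefore had more counts than Trp53 in every library labelled Ctrl and fewer in every library labelled cKO. The mean ratios were 1.78 ± 0.227 and 0.673 ± 0.062, and the mean log2 ratio differed by -1.40 (p = 0.1, exact two-sided permutation test). Cdkn1a had 7.64, 3.99 and 4.42 counts per count of Trp53 in the Ctrl-labelled libraries and 3.08, 1.89 and 1.22 in the cKO-labelled libraries. These groups did not overlap either, with a wider spread in each (5.35 ± 1.99 and 2.06 ± 0.944, difference of the mean log2 ratios -1.42, p = 0.1 in the same exact permutation test).

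**Figure D2:**
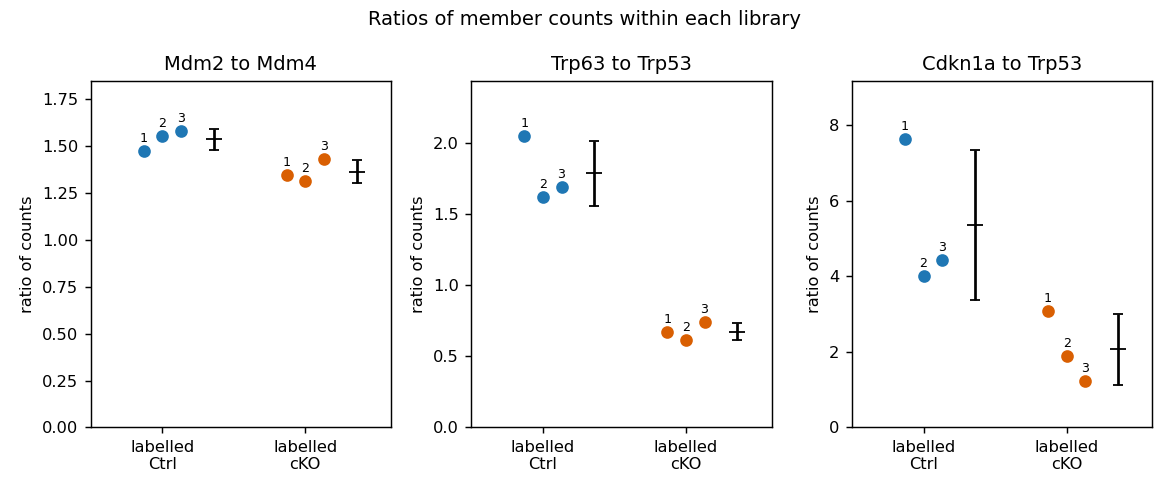
Ratios of counts within each library for Mdm2 to Mdm4, Trp63 to Trp53 and Cdkn1a to Trp53, with numbered points for single libraries by replicate and bars for the group mean ± SD (n = 3). In each panel all Ctrl-labelled libraries lie above all cKO-labelled libraries, by the least for Mdm2 to Mdm4 (1.47 to 1.58 against 1.31 to 1.43).

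Cdkn1a encodes p21, the inhibitor of cyclin-dependent kinases through which p53 halts the cell cycle. Its counts were 4805, 2776 and 3110 in the Ctrl-labelled libraries and 1747, 1392 and 871 in the cKO-labelled libraries. In CPM these were 122.7, 67.0 and 85.1 against 49.3, 36.1 and 19.8, so the groups did not overlap, while the highest library stood 1.83-fold above the lowest within the labelled Ctrl group and 2.49-fold within the labelled cKO group. The mean was 91.6 ± 28.4 CPM in the Ctrl-labelled libraries and 35.1 ± 14.8 CPM in the cKO-labelled libraries, a 2.61-fold difference (log2 -1.39, 95% interval -2.20 to -0.57, adjusted p = 0.0282 in edgeR's test). The adjusted p was 0.0916 without Ctrl replicate 1, 0.0544 without cKO replicate 2 and 0.0532 without cKO replicate 3. The log2 difference stayed between -1.73 and -1.12 in all 6 such fits. Cdkn1a lies on chromosome 17 (29090976 to 29100727, plus strand), and 273 of its exon bases overlap a gene on the other strand, AC167363.2.

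Sesn1 encodes sestrin 1, which restrains the growth regulator mTORC1 under stress. It had 56.1, 34.6 and 41.7 CPM in the Ctrl-labelled libraries and 31.6, 26.2 and 23.8 CPM in the cKO-labelled libraries. The groups did not overlap, but Ctrl replicate 2 and cKO replicate 1 were close. The difference was 1.62-fold (44.1 ± 10.9 against 27.2 ± 3.997 CPM, log2 -0.70, 95% interval -1.14 to -0.26, adjusted p = 0.0355 in edgeR's test). Among the 6 fits with 1 library left out, the call was kept only without Ctrl replicate 2. The adjusted p was 0.0876 without Ctrl replicate 1, 0.0578 without Ctrl replicate 3, 0.0536 without cKO replicate 1, 0.0709 without cKO replicate 2 and 0.1103 without cKO replicate 3. In both Cdkn1a and Sesn1 the library labelled Ctrl replicate 1 was the highest of all 6.

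Zmat3 encodes a zinc finger protein that binds RNA. Its 16.1, 16.9 and 16 CPM in the Ctrl-labelled libraries were all above the 12.8, 14.05 and 12.7 CPM in the cKO-labelled libraries. The difference was small and the spread within groups was smaller (16.3 ± 0.526 against 13.2 ± 0.741 CPM, 1.24-fold, log2 -0.31, 95% interval -0.51 to -0.11, adjusted p = 0.0371 in edgeR's test). The call was kept without cKO replicate 2 and lost in the 5 other fits, with an adjusted p of 0.0993 without Ctrl replicate 1, 0.118 without Ctrl replicate 2, 0.0569 without Ctrl replicate 3, 0.102 without cKO replicate 1 and 0.115 without cKO replicate 3. It was also lost when no filter on low counts was applied (adjusted p = 0.0589).

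Ccng1 encodes cyclin G1, which takes part in the feedback from p53 to Mdm2, and Aen encodes a nuclease of apoptosis. Both were higher in the cKO-labelled libraries. Ccng1 had 888, 869 and 948 CPM in the Ctrl-labelled libraries and 1385, 1057 and 1289 CPM in the cKO-labelled libraries. All cKO-labelled libraries were above all Ctrl-labelled ones, by a mean of 1.38-fold (902 ± 41.4 against 1243 ± 169 CPM, log2 0.46, 95% interval 0.17 to 0.75, adjusted p = 0.0349 in edgeR's test). Aen had 31.3, 35.1 and 32.9 CPM against 43.8, 39.4 and 44.0 CPM. Its groups were also apart, with a 1.28-fold difference (33.1 ± 1.91 against 42.4 ± 2.57 CPM, log2 0.36, 95% interval 0.17 to 0.54, adjusted p = 0.0202).

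Ccng1 lies on chromosome 11 (40748552 to 40755311, minus strand) and Aen on chromosome 7 (78895854 to 78911209, plus strand). Like Sesn1 (chromosome 10, 41809935 to 41908424, plus strand) and Zmat3 (chromosome 3, 32334792 to 32366014, minus strand), they share no exon bases with another annotated gene.

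The calls of Ccng1 and Aen depended on single libraries and on scaling. The adjusted p of Ccng1 was 0.104 without Ctrl replicate 1, 0.112 without Ctrl replicate 2, 0.112 without cKO replicate 1 and 0.120 without cKO replicate 3 in edgeR's test. That of Aen was 0.0781 without Ctrl replicate 1, 0.0735 without cKO replicate 1 and 0.0836 without cKO replicate 3. With total counts in place of TMM, the median log2 difference of all genes moved from -0.015 to -0.27, and Ccng1 (0.20, adjusted p = 0.136) and Aen (0.10, adjusted p = 0.323) no longer passed. Relative to the median of all genes, Ccng1 stood at 0.48 with TMM and 0.47 with total counts, and Aen at 0.37 with both. The myofiber markers summed to 71008 to 98151 CPM in the Ctrl-labelled libraries and 131346 to 176131 CPM in the cKO-labelled libraries. Of the 6 markers, 5 were called higher in the cKO-labelled libraries, against 12.6% of all genes. The type IIb myosin gene Myh4 averaged 25521 against 70116 CPM. Acta1 averaged 31719 against 36198 CPM and overlapped between the groups. The sum therefore does not measure the amount of myofiber alone, and the part of these markers in the values above was not tested.

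**Figure D3:**
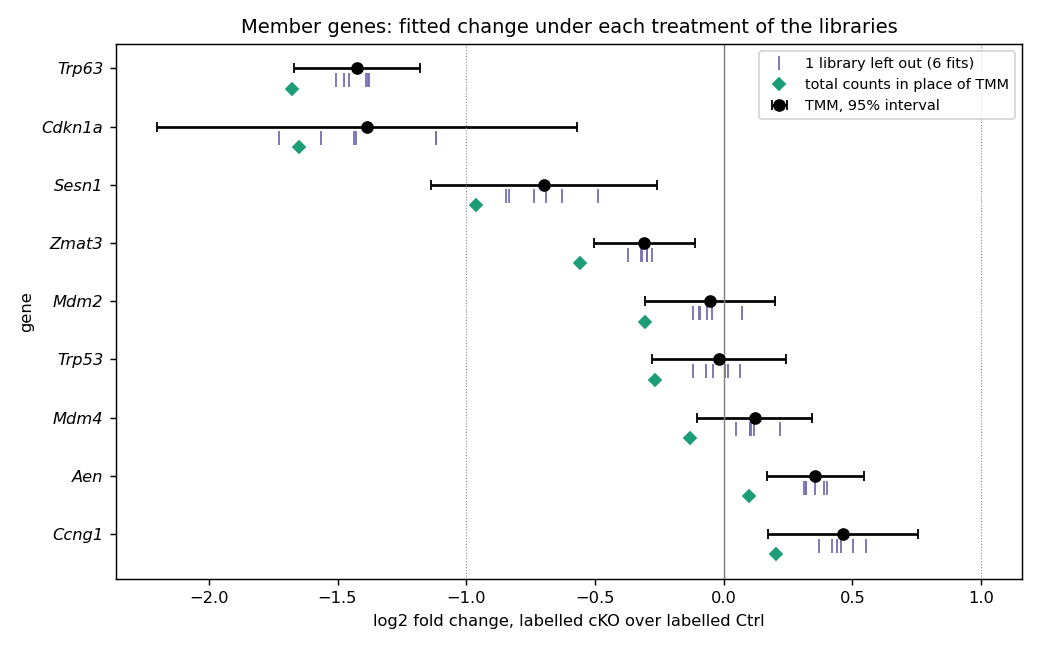
Fitted log2 difference, labelled cKO over labelled Ctrl, for the 9 genes tested. Black points and bars are the TMM fit with its 95% interval, ticks are the fits with 1 library left out and diamonds are the fits with total counts. Trp63 (-1.42) and Cdkn1a (-1.39) have like values but intervals of unlike width, and Ccng1 and Aen stay above 0 in all fits.

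Levels were compared between genes as CPM per kilobase of exon. The exons of all annotated transcripts of a gene were merged (8391 bases for Trp63 and 4045 for Trp53). The order depends on this choice of length. Ccng1 was the most abundant of the 10 genes in both groups, at 257 in the Ctrl-labelled libraries and 354 in the cKO-labelled libraries. In the Ctrl-labelled libraries it was followed by Cdkn1a (25.8), Mdm2 (16.6), Sesn1 (11.1), Aen (5.71), Trp53 (4.29), Mdm4 (3.70), Trp63 (3.67), Zmat3 (1.43) and Trp73 (0.0243). The ranges of neighbors in this order overlapped between Cdkn1a and Mdm2, between Trp53 and Mdm4 and between Mdm4 and Trp63. In the cKO-labelled libraries the order was Mdm2 (15.98), Cdkn1a (9.87), Aen (7.31), Sesn1 (6.83), Trp53 (4.24), Mdm4 (4.03), Trp63 (1.37), Zmat3 (1.154) and Trp73 (0.0429). There the ranges overlapped between Cdkn1a and Aen, between Aen and Sesn1 and between Trp53 and Mdm4. Trp63 thus overlapped Mdm4 in the Ctrl-labelled libraries and lay below it in the cKO-labelled libraries. On this measure Trp63 lay below Trp53 without overlap in both groups. The gap was narrow in the Ctrl-labelled libraries (at most 3.91 for Trp63 and at least 3.97 for Trp53). Mdm2 stood above Cdkn1a without overlap only in the cKO-labelled libraries.

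The genes whose levels most resembled those of Trp63 and Cdkn1a were found by Pearson's r of log2 CPM over the 6 libraries, among 8058 genes with a mean of at least 10 CPM. For Trp63 they were Tubb5, a beta tubulin (r = 0.999), Apod, a lipocalin (0.998), BC005537 (0.998), Gas2l1 (0.997) and F13a1, a coagulation factor subunit made by macrophages (0.997). For Cdkn1a they were Grb10, an adaptor of insulin signaling (0.994), Maml1, a coactivator of Notch (0.990), Fam213a (0.988), Pygo2 (0.986) and 9430020K01Rik (0.985). All 6 libraries fall into 2 labelled groups, so any gene with a like difference between the groups scores highly, and these values are a description.

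Upstream of p53, 21 kinases, acetylases, ligases and other regulators were all tested, and 4 (19.05%) were higher in the cKO-labelled libraries, against 12.6% of all genes, while 1 (4.76%) was higher in the Ctrl-labelled libraries, against 11.8%. Cop1, listed as Rfwd2, is a ubiquitin ligase of p53 and averaged 68.5 ± 2.87 CPM in the Ctrl-labelled libraries and 94.5 ± 2.42 CPM in the cKO-labelled libraries (log2 difference 0.46, adjusted p = 0.0059 in edgeR's test). This call was kept with each library left out. Usp7, which removes ubiquitin from Mdm2 and p53, rose by 0.38 (adjusted p = 0.0196), Trim24, another ligase of p53, by 0.38 (adjusted p = 0.039) and the acetylase Ep300 by 0.30 (adjusted p = 0.0372). Each of these was called in at most 2 of the 6 fits with 1 library left out. None of these 4 calls was kept with total counts, where Cop1 had an adjusted p of 0.0746. Ppp1r13l, an inhibitor of p53, was lower in the cKO-labelled libraries by 0.59 on the log2 scale (11.3 ± 2.35 against 7.48 ± 0.730 CPM, adjusted p = 0.0401), in 1 of the 6 fits. The kinase genes Atm, Atr, Chek1, Chek2, Prkdc and Hipk2 did not pass.

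Outside the 10 genes, 43 further p53 targets were listed in 4 groups by function, and 39 were tested. Of these, 10 (25.6%) were higher in the Ctrl-labelled libraries, against 11.8% of all genes, and 4 (10.3%) were higher in the cKO-labelled libraries, against 12.6%. Their median log2 difference was -0.38, against -0.02 for all genes tested. Without Rprm, described with the growth arrest targets, the first count was 9 of 38 (23.7%). With Rprm, it was 4 without Ctrl replicate 1, where 5.63% of all genes were called in that direction, 5 without Ctrl replicate 2 (6.57%), 8 without Ctrl replicate 3 (10.6%), 3 without cKO replicate 1 (6.18%), 6 without cKO replicate 2 (12.5%) and 5 without cKO replicate 3 (5.46%). It was 18 with total counts, where 28.7% of all genes were called in that direction. Rprm was called in all 6 fits with 1 library left out and with total counts. Each of these counts is 1 lower without it. The second count stayed at 3 or 4.

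Among targets in apoptosis, 5 of the 13 tested were higher in the Ctrl-labelled libraries, against 11.8% of all genes, and 1 in the cKO-labelled libraries, against 12.6%. Bbc3, which encodes the killer protein PUMA, had 4.83, 5.55 and 5.63 CPM in the Ctrl-labelled libraries and 2.14, 2.08 and 1.84 CPM in the cKO-labelled libraries. The groups were far apart for their spread (log2 difference -1.40, SE 0.15, adjusted p = 0.0023 in edgeR's test), and the call was kept with each library left out. Bax, the pore-forming effector of apoptosis, differed by -0.38 (adjusted p = 0.0184), the death receptor gene Eda2r by -1.43 (adjusted p = 0.0274), the BH3 gene Bid by -1.17 (adjusted p = 0.0279) and Pidd1, which encodes a platform for caspase activation, by -1.02 (adjusted p = 0.043). These were called in 4, 2, 1 and 1 of the 6 fits with 1 library left out. Ei24 went the other way, from 75.6 ± 3.19 to 114 ± 9.10 CPM (log2 difference 0.59, adjusted p = 0.0053), and was called in all 6 such fits. The death receptor gene Fas, which the study named, had 13.05, 9.19 and 6.21 CPM against 6.18, 6.31 and 6.18 CPM. Its groups overlapped and it did not pass (log2 difference -0.61, adjusted p = 0.115).

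Among growth arrest targets, 1 of the 8 tested (12.5%) was higher in the Ctrl-labelled libraries, near the 11.8% of all genes, and 0 were higher in the cKO-labelled libraries by edgeR. At an unadjusted p under 0.05 the counts were 2 and 0, against 19.6% and 19.2% of all genes. The 1 call was Rprm, whose counts are given without its test because it passed the filter on low counts through the Ctrl-labelled libraries alone. Rprm, which encodes reprimo, had 33, 36 and 52 counts in the Ctrl-labelled libraries and 2, 3 and 1 in the cKO-labelled libraries. The transcript was scarce in every library, and its groups were apart. Gadd45a, a classical target, differed by 0.04 (adjusted p = 0.852). Among targets in DNA repair and feedback, 2 of the 8 tested were higher in the cKO-labelled libraries, against 12.6% of all genes, and 1 in the Ctrl-labelled libraries, against 11.8%. Polk, a polymerase that copies past lesions, had 8.89, 8.61 and 11.9 CPM against 17.9, 17.4 and 17.4 CPM (log2 difference 0.84, adjusted p = 0.0073), and Rrm2b, a subunit of ribonucleotide reductase, differed by 0.42 (adjusted p = 0.0118). Polk kept its call with total counts and Rrm2b did not (adjusted p = 0.190). Without cKO replicate 3 the adjusted p of Rrm2b was 0.0527. Ddb2, a sensor of ultraviolet damage, was lower in the cKO-labelled libraries (log2 difference -0.50, adjusted p = 0.0482), in 1 of the 6 fits with a library left out.

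Among targets in metabolism and stress, 3 of the 10 tested were higher in the Ctrl-labelled libraries, against 11.8% of all genes, and 1 in the cKO-labelled libraries, against 12.6%. Tigar, a phosphatase that slows glycolysis, had 75.7, 97.7 and 101 CPM in the Ctrl-labelled libraries and 202, 194 and 239 CPM in the cKO-labelled libraries (log2 difference 1.21, SE 0.14, adjusted p = 0.0029 in edgeR's test). The cKO-labelled libraries were all above the Ctrl-labelled libraries, under every alternative tried the call was kept, and the direction was opposite to that of Cdkn1a. Sulf2, which edits heparan sulfate, fell from 24.9 ± 2.81 to 10.8 ± 3.14 CPM (log2 difference -1.21, adjusted p = 0.0078), also under every alternative. Pank1, which starts coenzyme A synthesis, differed by -1.21 (adjusted p = 0.0343) and Dram1, a lysosomal regulator of autophagy, by -0.70 (adjusted p = 0.0405), in 2 and 0 of the 6 fits with 1 library left out. Leaving Rprm aside for the filter, the calls of further p53 targets that were kept with each library left out were Bbc3 and Sulf2, lower in the cKO-labelled libraries, and Ei24, Polk and Tigar, higher there.

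**Figure D4:**
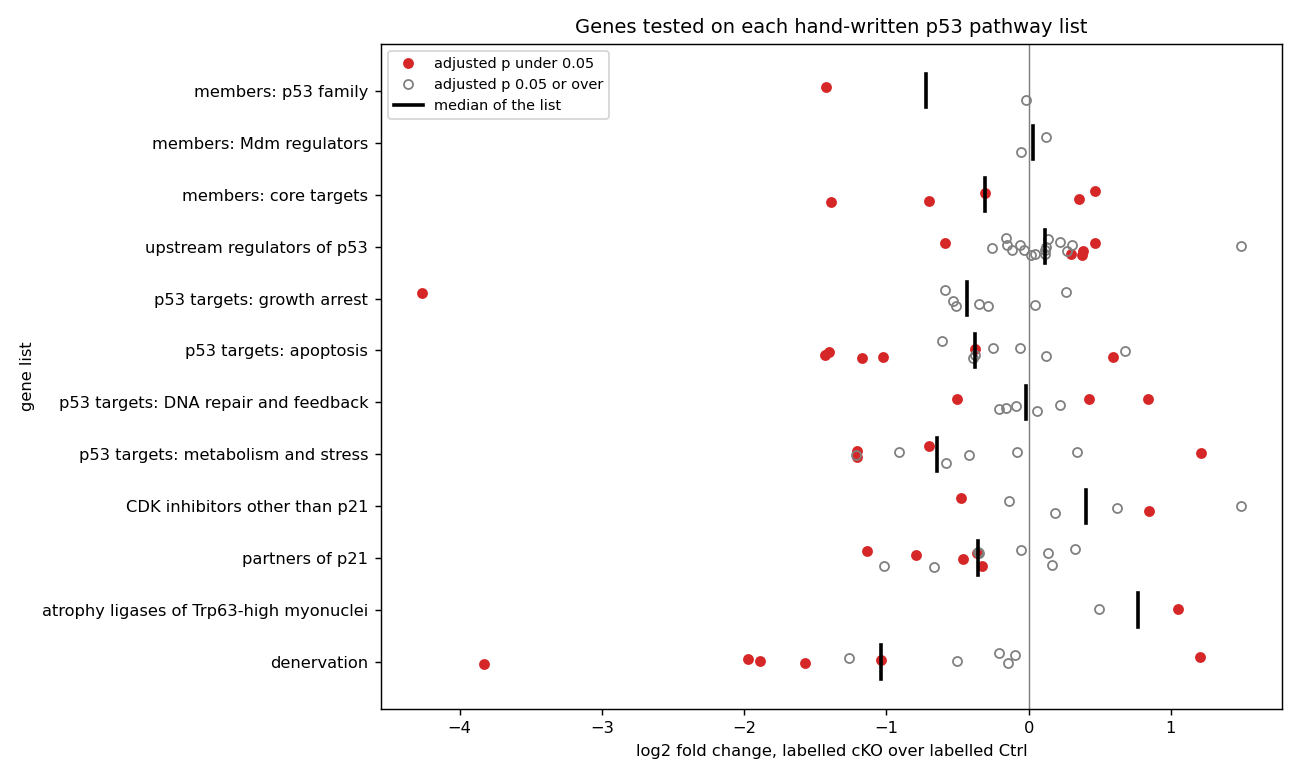
Fitted log2 difference, labelled cKO over labelled Ctrl, of each gene tested in the lists around p53, with filled points for an adjusted p under 0.05, open points for the others and a line for the median of each list. Calls fall on both sides of 0, from Eda2r at -1.43 to Tigar at 1.21 within the target lists apart from Rprm, which lies furthest to the left and whose fitted value depends on the prior count because of its 1 to 3 counts in the cKO-labelled libraries.

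The partners and relatives of p21 were listed as well. Of the 13 tested cyclins, kinases, pocket proteins and E2F factor of the cell cycle step that p21 blocks, 5 were higher in the Ctrl-labelled libraries and 0 in the cKO-labelled libraries by edgeR, against 11.8% and 12.6% of all genes. At an unadjusted p under 0.05 the counts were 6 and 0, against 19.6% and 19.2% of all genes. The retinoblastoma gene Rb1 differed by -0.46 (adjusted p = 0.0135 in edgeR's test), Cdk4 by -0.33 (adjusted p = 0.0192), Ccne1 by -1.14 (adjusted p = 0.0365), Ccnd3 by -0.36 (adjusted p = 0.0373) and E2f1 by -0.80 (adjusted p = 0.0439). Rb1 was called in 5 of the 6 fits with 1 library left out, with an adjusted p of 0.0508 without cKO replicate 3, and the other 4 in 1 or 2. Ccne1 was scarce, with 25, 39 and 24 counts in the Ctrl-labelled libraries and 9, 16 and 15 in the cKO-labelled libraries. Of 6 other inhibitors of cyclin-dependent kinases tested, 1 was called higher in the Ctrl-labelled libraries and 1 in the cKO-labelled libraries. These shares, 16.7% each, were near the 11.8% and 12.6% of all genes. Cdkn1c (p57) was lower in the cKO-labelled libraries (46.4 ± 5.998 against 33.3 ± 0.622 CPM, log2 difference -0.48, adjusted p = 0.0172, called in 3 of the 6 fits). Cdkn2c (p18) was higher there (8.85 ± 0.940 against 15.9 ± 0.810 CPM, log2 difference 0.85, adjusted p = 0.0036), with each library left out as well. The 5 proliferation markers summed to 1.30 to 3.83 CPM in the Ctrl-labelled libraries and 0.931 to 2.89 CPM in the cKO-labelled libraries, and 0 of the 3 tested were called by edgeR.

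Other marker lists also differed between the labelled groups. In the list of 11 genes raised by denervation, 5 were higher in the Ctrl-labelled libraries, as Trp63 and Cdkn1a were, against 11.8% of all genes. The myogenic factor gene Myog differed by -1.89 (adjusted p = 0.00055), the adhesion gene Ncam1 by -1.97 (adjusted p = 0.0025), embryonic myosin Myh3 by -3.83 (adjusted p = 0.003), Runx1 by -1.57 (adjusted p = 0.0066) and the acetylcholine receptor subunit gene Chrnd by -1.04 (adjusted p = 0.0225 in edgeR's test). Perinatal myosin Myh8 went the other way by 1.20 (adjusted p = 0.0275), the 1 call in that direction, against 12.6% of all genes. Myog, Ncam1, Myh3 and Runx1 were called in all 6 fits with 1 library left out, and Chrnd and Myh8 in 3. Of 7 immune markers, all had groups that did not overlap, against 43.9% of all genes, and 4 were called higher in the Ctrl-labelled libraries, against 11.8%, with sums of 128 to 149 CPM there and 57.0 to 85.0 CPM in the cKO-labelled libraries. The 7 slow-fiber markers summed to 8168 to 13643 CPM against 344 to 3300 CPM, and 3 of them were called higher in the Ctrl-labelled libraries, against the same 11.8%. Markers of endothelium (314 to 329 against 288 to 323 CPM) and fibro-adipogenic progenitors (1046 to 1257 against 758 to 1289 CPM) overlapped between the groups, and those of Schwann cells did not (55.3 to 89.0 against 31.3 to 54.6 CPM). Among the progenitor markers Col3a1 was lower in the cKO-labelled libraries (log2 difference -1.06, adjusted p = 0.0281) and the 4 others overlapped. The part of these cell types in the values of the p53 genes was not tested.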

How the data were processed

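Bulk RNA-Seq of GP muscle was used from 3 libraries labelled Ctrl and 3 labelled cKO, each from a separately numbered mouse. The authors deposited whole-number counts per gene without normalization. The submitters' processing notes name FastQC 0.11.8, Trimmomatic 0.39, HISAT2 2.1.0 and featureCounts 1.6.2 on mm10. The annotation and the strand setting of the counting are not given in the sources used here.

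The test was edgeR's quasi-likelihood test on these counts (edgeR 4.0.16, R 4.3.3, TMM, filterByExpr, glmQLFit and glmQLFTest, Benjamini-Hochberg adjustment over all genes tested). Calls used an adjusted p under 0.05. Standard errors were derived from the F statistic. CPM used TMM factors. The steps were tested on simulated data. Positions and exon lengths come from GENCODE M21 on GRCm38, and promoter windows from RefSeq.

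The 10 genes and all lists were chosen with earlier results of these data known. Named are the 10 genes, Net39, pathway list genes with an adjusted p under 0.05 (at most 6 per list and direction), the study's Fas, Fbxo32 and Trim63, and the 5 genes most like Trp63 and Cdkn1a. Gadd45a, the 6 kinase genes and the cell type markers named were added after their values were seen. Alternatives were DESeq2's size factors and Wald test (DESeq2 1.42.0), total counts, no filter on low counts, a minimum of 10 in every library, the mouse number as a block and each library left out.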

Additional observations from a re-analysis of the deposited data

How the results depend on the processing

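Of the 108 member values under the 12 alternatives, 77 kept direction and side of the threshold, 26 lost a call and 5 turned direction. The calls of Trp63 were kept in all 12. With total counts, 0 members were higher in the cKO-labelled libraries, 18 further targets were higher in the Ctrl-labelled libraries and Mdm4 turned to -0.13. Of all calls, 51.7% were higher in the cKO-labelled libraries with TMM (1786 against 1668) and 14.2% with total counts (673 against 4074). With 1 library left out, members higher in the Ctrl-labelled libraries were 1 to 3, members higher in the cKO-labelled libraries 0 to 2, members past 2-fold 1 to 2 and further targets higher in the Ctrl-labelled libraries 3 to 8. Each count of further targets includes Rprm. Trp53 ranged from -0.12 to 0.063 and Mdm2 from -0.12 to 0.069. Trp53 was above 0 without Ctrl replicate 3, cKO replicate 1 or cKO replicate 3, and Mdm2 without Ctrl replicate 3. Over all genes, calls then numbered 788 to 1808 higher in the Ctrl-labelled libraries and 766 to 1777 higher in the cKO-labelled libraries. Causes were not tested.

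The mouse numbers did not pair the samples: the correlations of same-numbered deviations were 0.0835, -0.215 and -0.00201. With the replicate block, 972 genes were higher in the Ctrl-labelled libraries and 927 in the cKO-labelled libraries, 3 members were higher in the Ctrl-labelled libraries (Zmat3 was lost, adjusted p = 0.0856 in edgeR's test), 0 members were higher in the cKO-labelled libraries (Ccng1 0.0763, Aen 0.0705) and 4 further targets in the Ctrl-labelled libraries. The count of further targets again includes Rprm. Depth limited Trp73, with 1 to 10 counts per library, and counting error was at most 5.14% for the other members.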
